A study of Cunninghamia lanceolata with 3 samples.

Results

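Cambium of Cunninghamia lanceolata (Chinese fir, a conifer grown for timber) was compared between the reactivating and the dormant stage of its yearly cycle. The comparison took 36274 assembled transcripts (unigenes) of the 53590 with a read in the series, namely those with 20 or more uniquely mapped reads summed over the reactivating and dormant libraries. The study sequenced messenger RNA from tangential cryosections of the cambium of trees about 16 years old, growing under natural conditions, with 1 library each for the reactivating, the dormant and the active stage. The reactivating and dormant libraries share tissue, age and preparation and differ by the labelled stage, and the active library enters no comparison here. How many trees went into a library is not given in the sources used here, and no library has a replicate. Differences are therefore given between these 2 libraries, with no p-value. The interval in parentheses after a fold is the 95% exact counting interval of the ratio, which leaves out tree-to-tree variation.

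The cambium is a thin cylinder of dividing initials between wood and bark. In winter its cells stop dividing and hold thick walls, storage reserves and cold-protective proteins. In spring the cells swell, resume division and begin to lay down new xylem and phloem, while the walls of the derivatives are first loosened for growth and later thickened and lignified. Bulk sections hold the cambial zone with its youngest derivatives, so that fewer cells of a type and less RNA per cell cannot be told apart in a lower value.

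In the reactivating library 6136 of the 36274 measured unigenes (16.9%) were at least 2-fold higher than in the dormant library, and 5014 (13.8%) were at least 2-fold lower. The other 25124 (69.3%) were within 2-fold. Unigenes that were higher held 22.9% of the reactivating reads and 6.08% of the dormant reads, and those that were lower held 5.14% of the reactivating and 23.5% of the dormant reads. A 4-fold difference was reached by 2456 unigenes upward (6.77%) and 1728 downward (4.76%), and a 10-fold one by 1001 upward (2.76%) and 683 downward (1.88%). The counting interval lay wholly beyond 2-fold for 3202 unigenes upward (8.83%) and 2254 downward (6.21%). Of unigenes with a hit in the protein collection 15.3% were higher and 13.5% lower, and of those without one 19.9% were higher and 14.5% lower. The dormant library was more concentrated, since 3703 unigenes held the first 50% of its reads, against 4197 in the reactivating library. Both libraries were equally deep, at 5.85 M uniquely mapped reads each. Of the measured unigenes, 238 had no read in the dormant library and up to 2864 in the reactivating library, and 188 had no read in the reactivating library and up to 1410 in the dormant library. Of unigenes with 20 to 50 reads 22.2% were higher and 18.8% lower, and of those with 1000 or more reads 15.0% were higher and 13.5% lower.

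**Figure D1:**
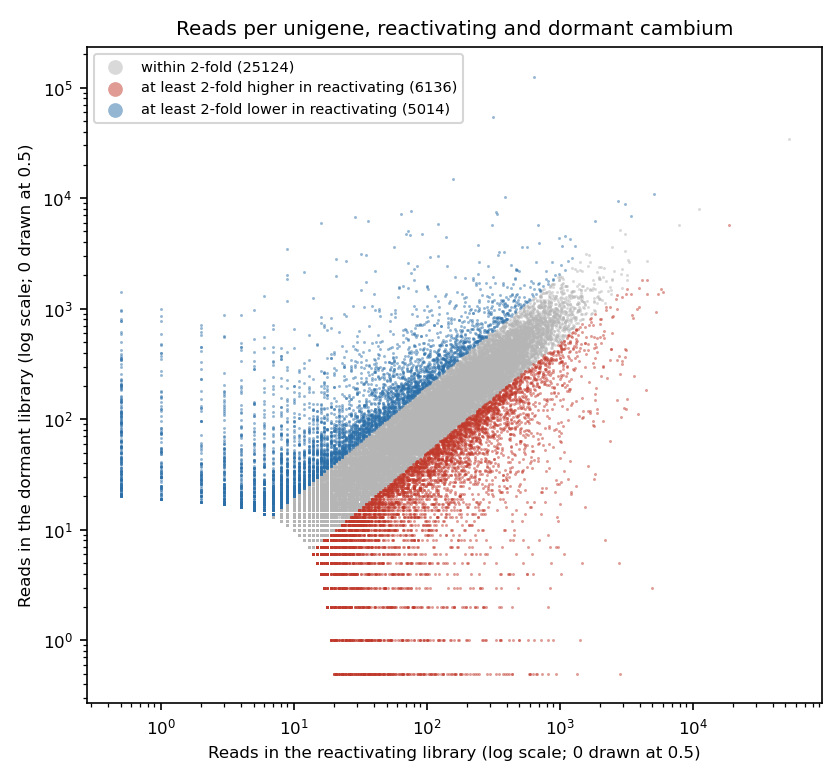
Reads per unigene in the reactivating library (x axis, log scale) and the dormant library (y axis, log scale) for the 36274 measured unigenes, with 0 reads drawn at 0.5. The 6136 red points were at least 2-fold higher and the 5014 blue points at least 2-fold lower in the reactivating library, and the empty lower left corner is the minimum of 20 reads in both together.

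Gene ontology terms gave the first view of what moved. Microtubule-based processes, enzyme-linked receptor signalling, the organisation of the cell wall and the cell cycle lay on the side of the reactivating library. The median of enzyme-linked receptor signalling was 1.27, and 0.63 when reads were summed by description. Cell wall biogenesis, another wall term, had 5 of 25 higher and 6 lower (median -0.20). L-phenylalanine, hexose and starch metabolism, drug transport and the plastid outer membrane lay on the side of the dormant library, although the hexose median was 0.01 and that of L-phenylalanine metabolism -0.08 when reads were summed by description. Medians of other plastid parts lay nearer 0, at 0.16 for plastid inner membrane, -0.01 for plastid envelope and -0.06 for chloroplast thylakoid. By count, plastid inner membrane had 7 of 47 higher and 5 lower. More members were lower than higher in plastid envelope, with 26 of 280 higher and 41 lower. Chloroplast thylakoid had 14 of 212 higher and 36 lower. Of 172 process terms with at least 20 measured unigenes, 12 had a median log2 ratio of reactivating over dormant of 0.5 or more and 7 had one of -0.5 or less. Of 154 function terms these were 9 and 2, and of 55 component terms 4 and 1. The medians ran from -0.76 to 1.38 for processes, and over all measured unigenes the median was 0.07. Unigenes with a process term were at least 2-fold higher in 15.6% and lower in 13.4% of cases, those with a function term in 15.0% and 13.7%, and those with a component term in 15.4% and 12.4%.

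**Figure D2:**
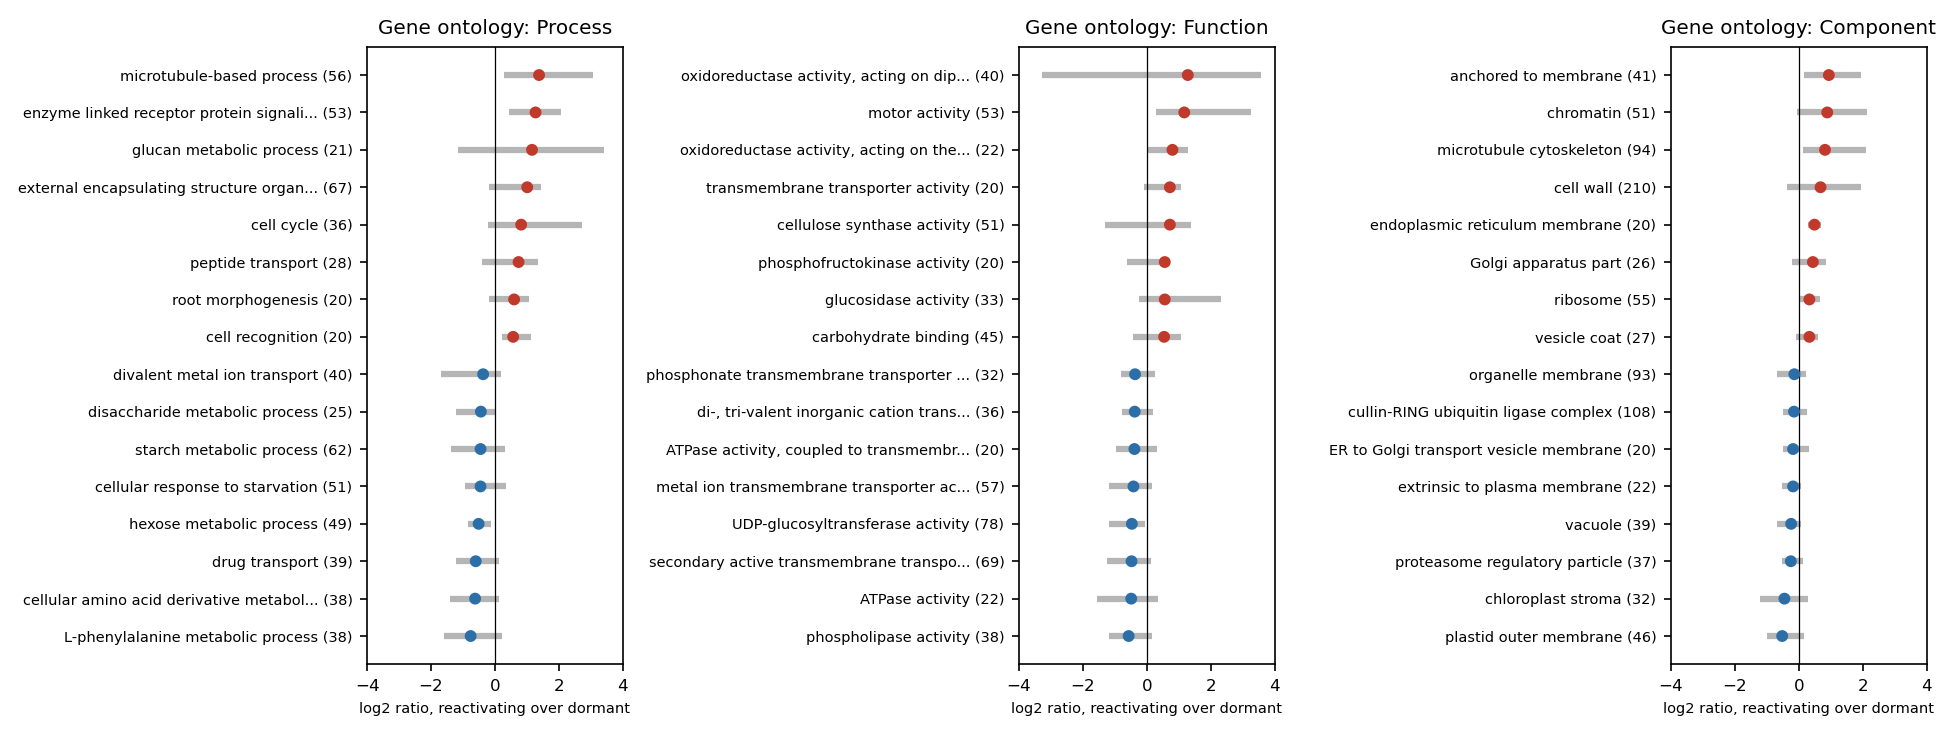
Median log2 ratio of reactivating over dormant (points) with the range between the quartiles of the members (grey bars) for the 8 named terms with the highest and the 8 with the lowest medians in each namespace, with the number of measured unigenes in parentheses. Microtubule-based process stands highest among processes at 1.38 and L-phenylalanine metabolic process lowest at -0.76, while the bar of oxidoreductases acting on diphenols runs from -3.29 to 3.58.

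Machinery of mitosis and of the spindle was among the groups with the most members higher in the reactivating library. Of 56 measured unigenes under microtubule-based process 33 were higher and 2 lower, and of 53 under motor activity 29 were higher and 1 lower. Cell cycle had 14 of 36 higher and 0 lower (median 0.82), chromatin 24 of 51 higher and 2 lower (median 0.89), and the microtubule cytoskeleton 41 of 94 higher and 2 lower (median 0.82). Under other settings 2 of these medians were smaller, that of cell cycle 0.03 with 10 reads in each library and that of chromatin 0.11 among unigenes of 500 bases or more. By protein name, 6 of 8 kinesins, the motors that move along microtubules, were higher and 0 lower, with 18 listed in the tables and the rest below the minimum of reads. Described unigenes as a whole, 4122 of the measured ones, were higher in 16.9% and lower in 16.9% of cases.

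The bipolar kinesin KRP-130 (Unigene8342), of the class that pushes spindle poles apart in animals and plants, had 128 reads in the reactivating library and 0 in the dormant library, at least 42.7-fold higher. The chromosome-associated kinesins KIF4A, which carry chromosome arms in animal cells, were higher in both unigenes, with 232 reads in the reactivating library and 27 in the dormant library, 8.59-fold higher (5.75 to 13.3) for Unigene18428 and 433 reads in the reactivating library and 122 in the dormant library, 3.55-fold higher (2.90 to 4.37) for Unigene59343. A kinesin heavy chain (Unigene14442) had 1531 reads in the reactivating library and 419 in the dormant library, 3.65-fold higher (3.28 to 4.08). A protein regulator of cytokinesis (Unigene57967), which bundles the microtubules of the dividing plane, had 215 reads in the reactivating library and 6 in the dormant library, 35.8-fold higher (16.2 to 98.7), while a second unigene of that name (Unigene58589) had 712 reads in the reactivating library, against 480 in the dormant one, within 2-fold. Thus unigenes of 1 name stood far apart.

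The list of cytokinesis and microtubule-binding proteins was mixed, with 3 of 16 higher and 3 lower (median -0.16). TPX2-like protein (Unigene11821), which nucleates spindle microtubules, was 3.48-fold higher (2.32 to 5.37). Formin-like protein 1 (Unigene18799), of a family that builds actin filaments, was the lower member with the most reads, with 925 reads in the reactivating library and 2013 in the dormant library, 2.18-fold lower (2.01 to 2.36). A microtubule-associated protein (Unigene3983) was 2.29-fold lower (1.90 to 2.78). Beta-tubulin (Unigene56293) had 1775 reads (364 RPKM) in the reactivating library and 96 reads (19.7 RPKM) in the dormant library, 18.5-fold higher (15 to 22.9), and gamma-tubulin (Unigene59378), which seeds microtubules, had 621 reads in the reactivating library, against 614 in the dormant one, 1.01-fold higher (0.903 to 1.13).

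Chromosome proteins were mixed. Centromeric protein E (Unigene59493), a kinetochore motor, had 305 reads in the reactivating library and 23 in the dormant library, 13.3-fold higher (8.67 to 21.2). Condensin subunits, which compact mitotic chromosomes, were higher in Unigene10724 (58 reads reactivating and 4 dormant) and Unigene11602 (35 reads reactivating and 2 dormant). Condensin names together had 3 of 6 higher and 1 lower, and among these were the cohesin-type members SMC1 (Unigene58669), within 2-fold, and SMC3 (Unigene56112), with 465 reads in the reactivating library, against 679 in the dormant one for SMC1 and 203 reads in the reactivating library and 420 in the dormant library, 2.07-fold lower (1.75 to 2.46) for SMC3. The list had 6 of 14 higher and 1 lower.

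In DNA replication, protein names and a process term gave different pictures. Of 11 measured unigenes named for the replication helicase, origin or fork, 10 were higher and 0 lower (median 4.03), and 19 were listed in the tables. With no minimum of reads the replication median was 2.94. The licensing factor MCM7 (Unigene130), a helicase subunit, had 174 reads in the reactivating library and 9 in the dormant library, 19.3-fold higher (9.95 to 43), and MCM3 (Unigene47368) had 77 reads in the reactivating library and 1 in the dormant library, 77-fold higher (13.4 to 3080). The process term DNA-dependent DNA replication, looked up after its values were seen, had 8 of 35 higher and 9 lower (median -0.25). Of these 35 unigenes 10 had a description that names a protein. The lower members included some named HECT ubiquitin ligases or KAKTUS, such as Unigene15192 with 59 reads in the reactivating library and 257 in the dormant library, 4.36-fold lower (3.27 to 5.88). KAKTUS is known in Arabidopsis as a repressor of repeated genome copying in leaf hairs.

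The process term DNA repair had 10 of 75 unigenes higher (13.3%) and 7 lower (9.33%). Over all unigenes with a process term these shares were 15.6% and 13.4%. By name, the list of DNA repair proteins had 3 of 9 higher (33.3%) and 0 lower. For silencing, the term production of siRNA involved in RNA interference had 1 of 23 higher and 3 lower. Single unigenes with names of recombination, DNA methylation or silencing were far higher. Homologous-pairing protein 2 (Unigene5130), a partner of meiotic recombinases in yeast and animals, had 213 reads in the reactivating library and 8 in the dormant library, 26.6-fold higher (13.3 to 62.5). A CMT-type DNA methyltransferase (Unigene17290), which maintains non-CG methylation in plants, had 490 reads in the reactivating library and 23 in the dormant library, 21.3-fold higher (14 to 33.9), and another DNA methyltransferase (Unigene13656) was 2.85-fold higher (2.21 to 3.69). DNA methyltransferase names together had 5 of 6 higher and 1 lower. Argonaute names had 4 of 9 higher and 0 lower, and the 4 higher ones were all among the 5 measured argonaute/Zwille-like unigenes, Unigene12511 among them with 220 reads in the reactivating library and 30 in the dormant library, 7.33-fold higher (4.99 to 11.1). ZWILLE is an Arabidopsis argonaute that keeps the shoot meristem. Chromatin modifiers as a list had 9 of 43 higher and 5 lower, and a chromatin remodeling complex subunit (Unigene15985) was 3.05-fold lower (2.62 to 3.56).

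Receptor kinases had more members higher than lower in the reactivating library, while the general receptor terms did not, with transmembrane receptor activity at 4 of 23 higher and 5 lower and receptor activity at 5 of 23 higher and 5 lower. Under enzyme linked receptor protein signaling pathway 28 of 53 unigenes were higher and 5 lower, with 18446 reads in the reactivating library and 6735 in the dormant library. Of 86 unigenes named as receptor kinases 33 were higher and 13 lower (median 0.54), and 146 were listed in the tables. A nodulation receptor kinase precursor (Unigene18900) had 184 reads in the reactivating library and 0 in the dormant library, at least 61.3-fold higher. BAK1-like co-receptor kinase (Unigene5012), which in Arabidopsis pairs with the brassinosteroid and immune receptors, had 219 reads in the reactivating library and 14 in the dormant library, 15.6-fold higher (9.12 to 29.1), and a second (Unigene43726) had 521 reads in the reactivating library and 175 in the dormant library, 2.98-fold higher (2.50 to 3.55). A brassinosteroid-like receptor protein (Unigene53517) had 1322 reads (379 RPKM) in the reactivating library and 145 reads (41.5 RPKM) in the dormant library, 9.12-fold higher (7.67 to 10.9).

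Clavata names, of the receptor family that limits stem cell number in Arabidopsis shoot tips, had 6 of 28 higher and 5 lower. Those described as clavata1 precursors had 5 of 13 higher and 2 lower, with a median of 0.65. Those described as clavata-like receptors had 1 of 15 higher and 3 lower, with a median of -0.48. Unigene1876 had 916 reads in the reactivating library and 137 in the dormant library, 6.68-fold higher (5.58 to 8.06), whereas Unigene146 had 64 reads in the reactivating library and 214 in the dormant library, 3.34-fold lower (2.52 to 4.49) and Unigene14805 had 44 reads in the reactivating library and 121 in the dormant library, 2.75-fold lower (1.93 to 3.98). THESEUS 1-like kinase (Unigene45744), known in Arabidopsis as a sensor of wall integrity, was 10.8-fold lower (5.22 to 25.7). A leucine-rich repeat family protein (Unigene44359) had 223 reads in the reactivating library and 0 in the dormant library, at least 74.3-fold higher. Intracellular immune receptors with NBS-LRR names had 21 of 63 higher and 10 lower (median 0.60), with 165 listed and the others below the minimum of reads. Among them a disease resistance gene (Unigene50013) had 139 reads in the reactivating library and 13 in the dormant library, 10.7-fold higher (6.05 to 20.6), and a CC-NBS-LRR resistance-like protein (Unigene14497) had 108 reads in the reactivating library and 975 in the dormant library, 9.03-fold lower (7.40 to 11.1).

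The secreted peptide hormone phytosulfokine, a growth signal that acts through a receptor kinase, was lower in its precursor (Unigene49847), which had 7 reads (2.70 RPKM) in the reactivating library and 449 reads (173 RPKM) in the dormant library, 64.2-fold lower (30.9 to 160). Calcium sensors had 7 of 50 higher and 11 lower. Calcium-dependent protein kinase 1 (Unigene57964) was 2.09-fold higher (1.83 to 2.38) and calcium dependent protein kinase 3 (Unigene28620) was 2.77-fold lower (2.19 to 3.52).

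The cell wall held both the largest increase and the largest decrease among named unigenes with at least 200 reads, a beta-1,3-glucanase and an arabinofuranosidase. Under the component term cell wall 86 of 210 unigenes were higher and 33 lower, with 52075 reads in the reactivating library and 26993 in the dormant library. Under anchored to membrane, a term for proteins held by a lipid anchor, 20 of 41 were higher and 0 lower (median 0.94). When reads were summed by description that median was 0.11. External encapsulating structure organization had 34 of 67 higher and 12 lower. The wall families differed in how evenly their members moved.

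Glucan-cutting enzymes of growing walls were mostly higher. Endoglucanases and xyloglucan endotransglucosylases together had 12 of 20 members higher and 3 lower (median 2.10). With 10 reads required in each library the median was 0.50, and with no minimum 0.46. An endo-beta-1,4-glucanase (Unigene47139) had 900 reads (411 RPKM) in the reactivating library and 1 read (0.457 RPKM) in the dormant library, 900-fold higher (161 to 35580). Xyloglucan endotransglycosylase hydrolase 1 (Unigene28011), which cuts and rejoins the tethers between cellulose fibres, had 236 reads in the reactivating library and 8 in the dormant library, 29.5-fold higher (14.7 to 69.1). The member of that enzyme class with the most reads, Unigene18243, had 1019 reads in the reactivating library, against 945 in the dormant one, 1.08-fold higher (0.986 to 1.18). Pectin enzymes had 13 of 25 higher and 2 lower (median 1.16). With no minimum of reads the pectin median was 0.42 and with 100 reads 1.84. A pectinesterase PPE8B precursor (Unigene57279), which removes methyl groups from pectin, had 101 reads in the reactivating library and 1 in the dormant library, 101-fold higher (17.7 to 4028), a pectin methylesterase-like protein (Unigene50826) had 511 reads in the reactivating library and 83 in the dormant library, 6.16-fold higher (4.87 to 7.86), and a pectinesterase (Unigene34411) had 9 reads in the reactivating library and 120 in the dormant library, 13.3-fold lower (6.79 to 29.9). Alpha-expansin 3 (Unigene57087), a wall-loosening protein, had 1182 reads in the reactivating library and 186 in the dormant library, 6.35-fold higher (5.44 to 7.46), in a list with 3 of 14 higher and 2 lower.

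Enzymes on 1,3-linked glucans had more members lower than higher. Of 21 callose synthases and beta-1,3-glucanases 4 were higher and 7 lower (median -0.63). Their summed reads were 5607 in the reactivating library and 4097 in the dormant library. Unigenes named callose synthase had 0 of 4 higher and 2 lower, and those named glucan synthase like 3 had 0 of 5 higher and 1 lower. Callose is the glucan that plugs sieve pores and plasmodesmata, and the glucanases remove it. The beta-1,3-glucanase Unigene57007 had 1434 reads in the reactivating library and 1 in the dormant library, 1434-fold higher (257 to 56668). An endo-beta-1,3-glucanase (Unigene41697) had 4 reads (2.37 RPKM) in the reactivating library and 339 reads (201 RPKM) in the dormant library, 84.8-fold lower (32.8 to 313). A glucan endo-1,3-beta-glucosidase precursor (Unigene7821) had 989 reads in the reactivating library and 381 in the dormant library, 2.60-fold higher (2.30 to 2.93), and another (Unigene13155) had 421 reads in the reactivating library and 65 in the dormant library, 6.48-fold higher (4.98 to 8.54). A callose synthase 3-like unigene (Unigene59472) was 2.37-fold lower (1.92 to 2.96) and a 1,3-beta-glucan synthase (Unigene56308) had 539 reads in the reactivating library, against 692 in the dormant one, within 2-fold.

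Laccases, copper enzymes that couple lignin monomers, had no measured member within 2-fold. Of 15 measured laccases 7 were higher and 8 lower, and 25 were listed in the tables. On the dormant side Unigene55856 had 1 read in the reactivating library and 353 in the dormant library, 353-fold lower (63 to 13984), Unigene23229 had 10 reads in the reactivating library and 437 in the dormant library, 43.7-fold lower (23.5 to 91.8) and Unigene39882 had 0 reads in the reactivating library and 361 in the dormant library, at least 120-fold lower. On the reactivating side Unigene12866 had 461 reads in the reactivating library and 32 in the dormant library, 14.4-fold higher (10.1 to 21.3) and Unigene28080 had 117 reads in the reactivating library and 0 in the dormant library, at least 39-fold higher. The function term for oxidoreductases acting on diphenols, which takes in laccases, had 22 of 40 higher and 12 lower.

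Cellulose synthases and peroxidases were divided as well. The function term cellulose synthase activity had 22 of 51 higher and 16 lower. By contrast, the list of cellulose synthase and cellulose synthase-like names had 15 of 43 higher and 18 lower. Unigenes named cellulose synthase catalytic subunit had 0 of 12 higher and 12 lower. Those named cellulose synthase had 8 of 16 higher and 3 lower. Cellulose synthase 1B (Unigene32160) had 156 reads in the reactivating library and 54 in the dormant library, 2.89-fold higher (2.11 to 4.01), while cellulose synthase Unigene43616 had 18 reads in the reactivating library and 263 in the dormant library, 14.6-fold lower (9.07 to 25) and cellulose synthase 2 (Unigene48653) had 5 reads in the reactivating library and 106 in the dormant library, 21.2-fold lower (8.81 to 66.6). The upper quartile of the cellulose list was 1.17 on the log2 scale and the lower quartile -3.63, so the lower members lay further from 0. Class III peroxidases, which oxidise wall phenols, had 5 of 17 higher and 7 lower. Peroxidase 47 precursor (Unigene56335), the member with the most reads, had 449 reads in the reactivating library and 1672 in the dormant library, 3.72-fold lower (3.35 to 4.14), and peroxidase 66 precursor (Unigene28826) had 0 reads in the reactivating library and 159 in the dormant library, at least 53-fold lower. A bacterial-induced peroxidase precursor (Unigene53623) had 170 reads in the reactivating library and 37 in the dormant library, 4.59-fold higher (3.20 to 6.75).

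Side-chain glycosidases were split by unigene within 1 name. Of 36 members 9 were higher and 7 lower. An alpha-L-arabinofuranosidase/beta-D-xylosidase (Unigene45625), which trims pectin and xylan, had 634 reads in the reactivating library and 52 in the dormant library, 12.2-fold higher (9.18 to 16.5), whereas another unigene of the same name (Unigene45159) had 1 read in the reactivating library, against 996 in the dormant one. A beta-glucosidase (Unigene44670) had 547 reads in the reactivating library and 59 in the dormant library, 9.27-fold higher (7.08 to 12.3), and a beta-glucosidase (Unigene4329) had 0 reads in the reactivating library and 205 in the dormant library, at least 68.3-fold lower. An alkaline alpha galactosidase (Unigene57569), of a family that breaks down raffinose sugars, had 793 reads in the reactivating library and 34 in the dormant library, 23.3-fold higher (16.5 to 33.9). Fasciclin-like arabinogalactan protein 2 (Unigene22492), a wall glycoprotein, had 182 reads in the reactivating library and 13 in the dormant library, 14-fold higher (7.98 to 26.8), while fasciclin-like arabinogalactan protein 13 (Unigene41968) had 609 reads in the reactivating library, against 672 in the dormant one, 1.10-fold lower (0.988 to 1.23). Of 162 protein names with at least 4 measured unigenes, 21 held both a unigene at least 4-fold higher and one at least 4-fold lower, 36 had members beyond 2-fold upward and none downward, 49 downward and none upward, and 30 had none beyond 2-fold. How far such splits come from close gene copies or from fragments of a transcript was not tested.

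**Figure D3:**
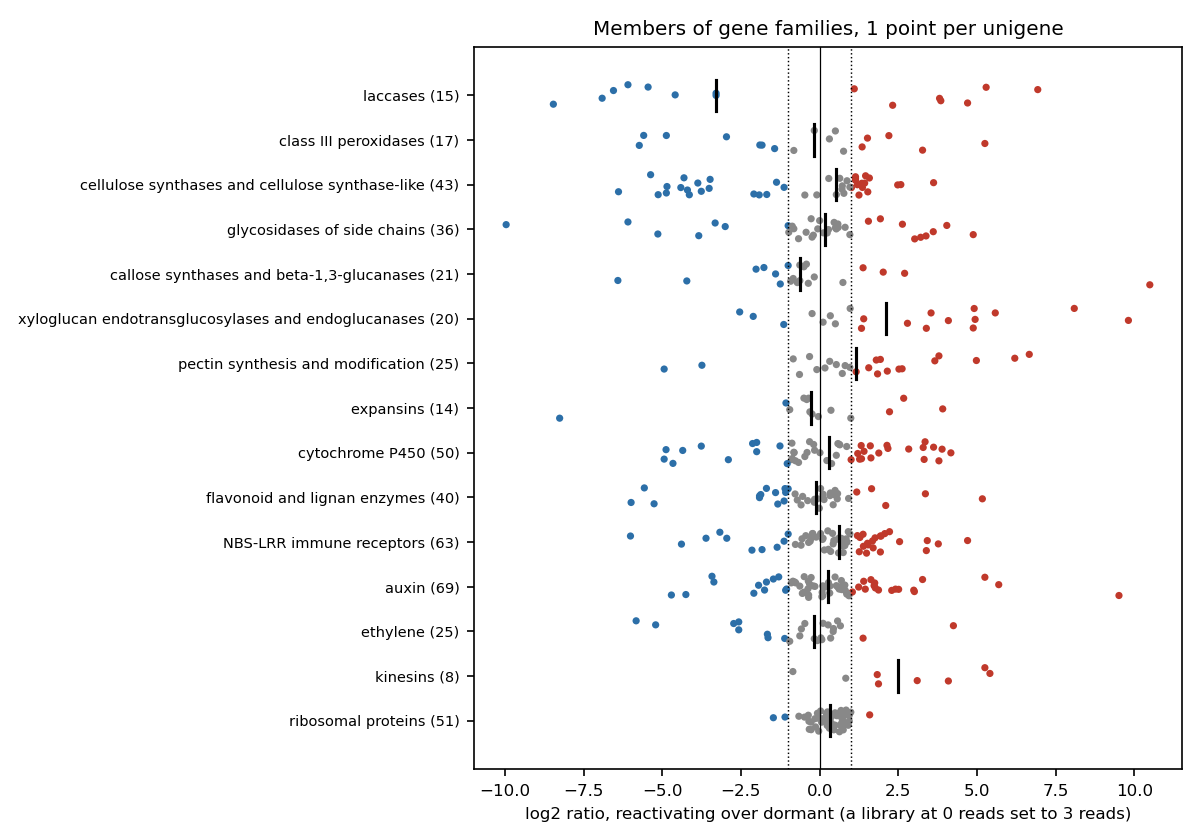
Log2 ratio of reactivating over dormant (x axis) for each measured unigene of 15 gene families (rows, number of unigenes in parentheses), with the median as a black bar and 2-fold as dotted lines. Laccases leave the space between the dotted lines empty and cellulose synthases reach much further down than up, while 48 of 51 ribosomal proteins lie within 2-fold.

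Among phenylpropanoid enzymes the terms gave different pictures. The process term L-phenylalanine metabolic process had 1 of 38 unigenes higher and 15 lower, the lowest median of the process terms, -0.76. Phenylpropanoid biosynthetic process had 4 of 48 higher and 2 lower (median 0.18), with 12902 reads in the reactivating library and 10119 in the dormant library. By name 1 of 43 enzymes of lignin monomers were higher and 14 lower. Phenylalanine ammonia-lyase, which feeds phenylalanine into lignin and flavonoids, had 0 of 18 higher and 8 lower, with the other 10 within 2-fold. Unigene32836 had 296 reads in the reactivating library and 931 in the dormant library, 3.15-fold lower (2.76 to 3.60) and Unigene8772 had 29 reads in the reactivating library and 186 in the dormant library, 6.42-fold lower (4.32 to 9.84), while Unigene39187 had 627 reads in the reactivating library, against 423 in the dormant one, 1.48-fold higher (1.31 to 1.68). A P450 described as a probable hydroxylase for coniferyl compounds (Unigene1241) was the 1 member that was higher, with 122 reads in the reactivating library and 12 in the dormant library, 10.2-fold higher (5.61 to 20.2). Among lignan enzymes, there were 2 reads in the reactivating library and 127 in the dormant library, 63.5-fold lower (17.2 to 530) for the pinoresinol-lariciresinol reductase Unigene11951, whereas dirigent-like proteins, which steer lignan coupling, split into Unigene34668 with 133 reads in the reactivating library and 31 in the dormant library, 4.29-fold higher (2.88 to 6.56) and Unigene6520 with 0 reads in the reactivating library and 142 in the dormant library, at least 47.3-fold lower. Phenylalanine aminomutase (Unigene22774) had 93 reads in the reactivating library and 10 in the dormant library, 9.30-fold higher (4.84 to 20). The list of flavonoid and lignan enzymes had 5 of 40 higher and 13 lower.

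Among enzymes of carbohydrate reserves, more unigenes for starch, sucrose and raffinose were lower than higher in the reactivating library. Of 37 starch unigenes 2 were higher and 14 lower (median -0.83), and of 15 for raffinose and trehalose 0 were higher and 7 lower (median -0.68). Summed by description the raffinose and trehalose median was -1.80. Enzymes of both starch making and starch breaking were among the lower ones. The 1,4-alpha-glucan branching enzyme (Unigene58382), which makes the branch points of starch, had 431 reads (57.5 RPKM) in the reactivating library and 2474 reads (330 RPKM) in the dormant library, 5.74-fold lower (5.18 to 6.37). Alpha-glucan water dikinase (Unigene59584), which phosphorylates starch to open it for breakdown, had 996 reads (65.3 RPKM) in the reactivating library and 4348 reads (285 RPKM) in the dormant library, 4.37-fold lower (4.07 to 4.68). Plastid glucan phosphorylase (Unigene58383) had 145 reads in the reactivating library and 757 in the dormant library, 5.22-fold lower (4.37 to 6.28). In contrast granule-bound starch synthase, the enzyme of amylose, was higher in both named unigenes, with 571 reads in the reactivating library and 180 in the dormant library, 3.17-fold higher (2.68 to 3.77) for Unigene23756 and 240 reads in the reactivating library and 93 in the dormant library, 2.58-fold higher (2.02 to 3.31) for Unigene20972.

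Sucrose phosphate synthase, which makes sucrose, had 0 of 7 higher and 6 lower, with Unigene10711 at 29 reads in the reactivating library and 428 in the dormant library, 14.8-fold lower (10.1 to 22.3), Unigene51482 at 82 reads in the reactivating library and 584 in the dormant library, 7.12-fold lower (5.65 to 9.09) and Unigene32854 at 248 reads in the reactivating library and 1155 in the dormant library, 4.66-fold lower (4.06 to 5.36). Sucrose synthase, which cleaves sucrose in growing sinks, had 4 of 7 higher and 0 lower (median 1.01). Invertases, which also cleave sucrose, had 1 of 12 higher and 3 lower. Acid invertase (Unigene8714) had 706 reads in the reactivating library and 340 in the dormant library, 2.08-fold higher (1.82 to 2.37). A beta-fructofuranosidase (Unigene17421), another invertase, had 73 reads in the reactivating library and 532 in the dormant library, 7.29-fold lower (5.70 to 9.44). The sucrose list had 5 of 26 higher and 9 lower. Galactinol synthase (Unigene39582), which starts raffinose synthesis, had 100 reads in the reactivating library and 837 in the dormant library, 8.37-fold lower (6.80 to 10.4), and a raffinose synthase-like protein (Unigene485) had 42 reads in the reactivating library and 324 in the dormant library, 7.72-fold lower (5.58 to 10.9). Hexose transporter 2 (Unigene35461) had 194 reads in the reactivating library and 34 in the dormant library, 5.70-fold higher (3.95 to 8.47), and a sugar transporter family protein (Unigene53448) had 32 reads in the reactivating library and 330 in the dormant library, 10.3-fold lower (7.16 to 15.3).

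Central metabolism had few members beyond 2-fold, with 6 of 73 unigenes of glycolysis and respiration higher and 10 lower. Cytosolic glyceraldehyde-3-phosphate dehydrogenase (Unigene58311) was an exception in size, with 519 reads (70.5 RPKM) in the reactivating library and 3655 reads (496 RPKM) in the dormant library, 7.04-fold lower (6.42 to 7.74). Of the 4 unigenes of that name it was the 1 beyond 2-fold, and their median was 0.32. Enolase (Unigene57423), a later step of glycolysis, had 320 reads in the reactivating library and 130 in the dormant library, 2.46-fold higher (2 to 3.04). NADP-dependent malate dehydrogenase (Unigene39737) was 4.28-fold lower (3.46 to 5.33). Glutamate decarboxylase, which makes gamma-aminobutyrate, split into Unigene44146 with 260 reads in the reactivating library and 26 in the dormant library, 10-fold higher (6.67 to 15.6) and Unigene28503 with 93 reads in the reactivating library and 713 in the dormant library, 7.67-fold lower (6.17 to 9.62). The amino acid and nitrogen list had 4 of 46 higher and 5 lower.

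Most proteins of cold and drying were lower, while small heat shock proteins had no lower member. Dehydrins, late embryogenesis abundant (LEA) proteins and cold-responsive names had 3 of 13 higher and 10 lower (median -3.34). The median was -1.59 with no minimum of reads and -4.42 with a minimum of 100 reads. Dehydrins and LEA proteins shield membranes and enzymes during water loss. Dehydrin Unigene20916 had 9 reads (9.93 RPKM) in the reactivating library and 2036 reads (2246 RPKM) in the dormant library, 226-fold lower (119 to 496), and LEA protein D-34 (Unigene37490) had 3 reads in the reactivating library and 571 in the dormant library, 190-fold lower (64.8 to 926). Low-temperature-induced proteins had 140 reads in the reactivating library and 4485 in the dormant library, 32-fold lower (27.1 to 38.2) for Unigene48650 and 122 reads in the reactivating library and 5829 in the dormant library, 47.8-fold lower (39.9 to 57.7) for Unigene14523. A LEA protein (Unigene11757) had 154 reads in the reactivating library and 67 in the dormant library, 2.30-fold higher (1.71 to 3.11), against the trend of its family. These lists were chosen with earlier results of these libraries known, so their direction is not independent evidence.

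Small heat shock proteins, which hold unfolding proteins, were higher in 3 of 5 unigenes and lower in 0. Heat shock protein 18 (Unigene48963) had 2426 reads (994 RPKM) in the reactivating library and 431 reads (177 RPKM) in the dormant library, 5.63-fold higher (5.08 to 6.25). The one with the most reads (Unigene26755) had 7973 reads in the reactivating library, against 5723 in the dormant one, within 2-fold. Other chaperones had 13 of 64 higher and 5 lower (median 0.29), with 2964 reads in the reactivating library and 317 in the dormant library, 9.35-fold higher (8.32 to 10.5) for a heat shock protein (Unigene26829) and 102 reads in the reactivating library and 768 in the dormant library, 7.53-fold lower (6.12 to 9.35) for a heat shock-like protein (Unigene48028). Members of the process term response to light intensity, with 14 of 48 higher and 7 lower, included Unigene48963 and Unigene20916.

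Defence proteins had no measured member within 2-fold either. Of 15 measured thaumatin-like proteins, chitinases and pathogenesis-related proteins 6 were higher and 9 lower, and 35 were listed. Their median was -2.22, and -0.42 with no minimum of reads. A thaumatin-like protein (Unigene42965), of a family with antifungal and in some plants antifreeze activity, had 93 reads (52.3 RPKM) in the reactivating library and 4789 reads (2693 RPKM) in the dormant library, 51.5-fold lower (42 to 63.9), while thaumatin-like protein 1 (Unigene36136) had 156 reads in the reactivating library and 13 in the dormant library, 12-fold higher (6.81 to 23). Germin-like protein 5 (Unigene50808), a protein of the cell wall space, had 18 reads in the reactivating library and 648 in the dormant library, 36-fold lower (22.6 to 61.1). Among redox enzymes, ascorbate peroxidase (Unigene32185) had 1163 reads in the reactivating library and 564 in the dormant library, 2.06-fold higher (1.86 to 2.28) and a glutathione peroxidase-like protein (Unigene25646) had 76 reads in the reactivating library and 623 in the dormant library, 8.20-fold lower (6.45 to 10.5). The list of oxidoreductive protection had 2 of 17 higher and 6 lower, and its median was 0.40.

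Several proteases were among the largest decreases, while the terms for proteases held members on both sides, since endopeptidase activity had 33 of 229 higher and 24 lower and peptidase activity 8 of 48 higher and 8 lower. The serine protease cucumisin precursor (Unigene49939) had 1 read (0.383 RPKM) in the reactivating library and 768 reads (294 RPKM) in the dormant library, 768-fold lower (137 to 30379). A subtilisin-like protein (Unigene5729), of the same enzyme class, had 0 reads in the reactivating library and 595 in the dormant library, at least 198-fold lower, and a second subtilisin-like endopeptidase (Unigene480) had 5 reads in the reactivating library and 306 in the dormant library, 61.2-fold lower (25.9 to 190). Serine proteases by name had 5 of 22 higher and 5 lower. Cysteine proteases had 6 reads in the reactivating library and 555 in the dormant library, 92.5-fold lower (42.2 to 253) for Unigene27284 and 17 reads in the reactivating library and 685 in the dormant library, 40.3-fold lower (25 to 69.6) for Unigene52401. In the other direction, xylem serine proteinase 1 precursors were higher in Unigene51035, with 291 reads in the reactivating library and 33 in the dormant library, 8.82-fold higher (6.14 to 13.1), and Unigene18986, with 74 reads in the reactivating library and 7 in the dormant library, 10.6-fold higher (4.88 to 27.2), and Unigene49674 had 373 reads in the reactivating library, against 233 in the dormant one, within 2-fold. Senescence-associated proteins had 0 of 5 higher and 3 lower, with 77 reads in the reactivating library and 2098 in the dormant library, 27.3-fold lower (21.7 to 34.7) for Unigene40354 and 39 reads in the reactivating library and 1064 in the dormant library, 27.3-fold lower (19.8 to 38.6) for Unigene41816. The function term carboxypeptidase activity had 16 of 41 higher and 9 lower.

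**Figure D4:**
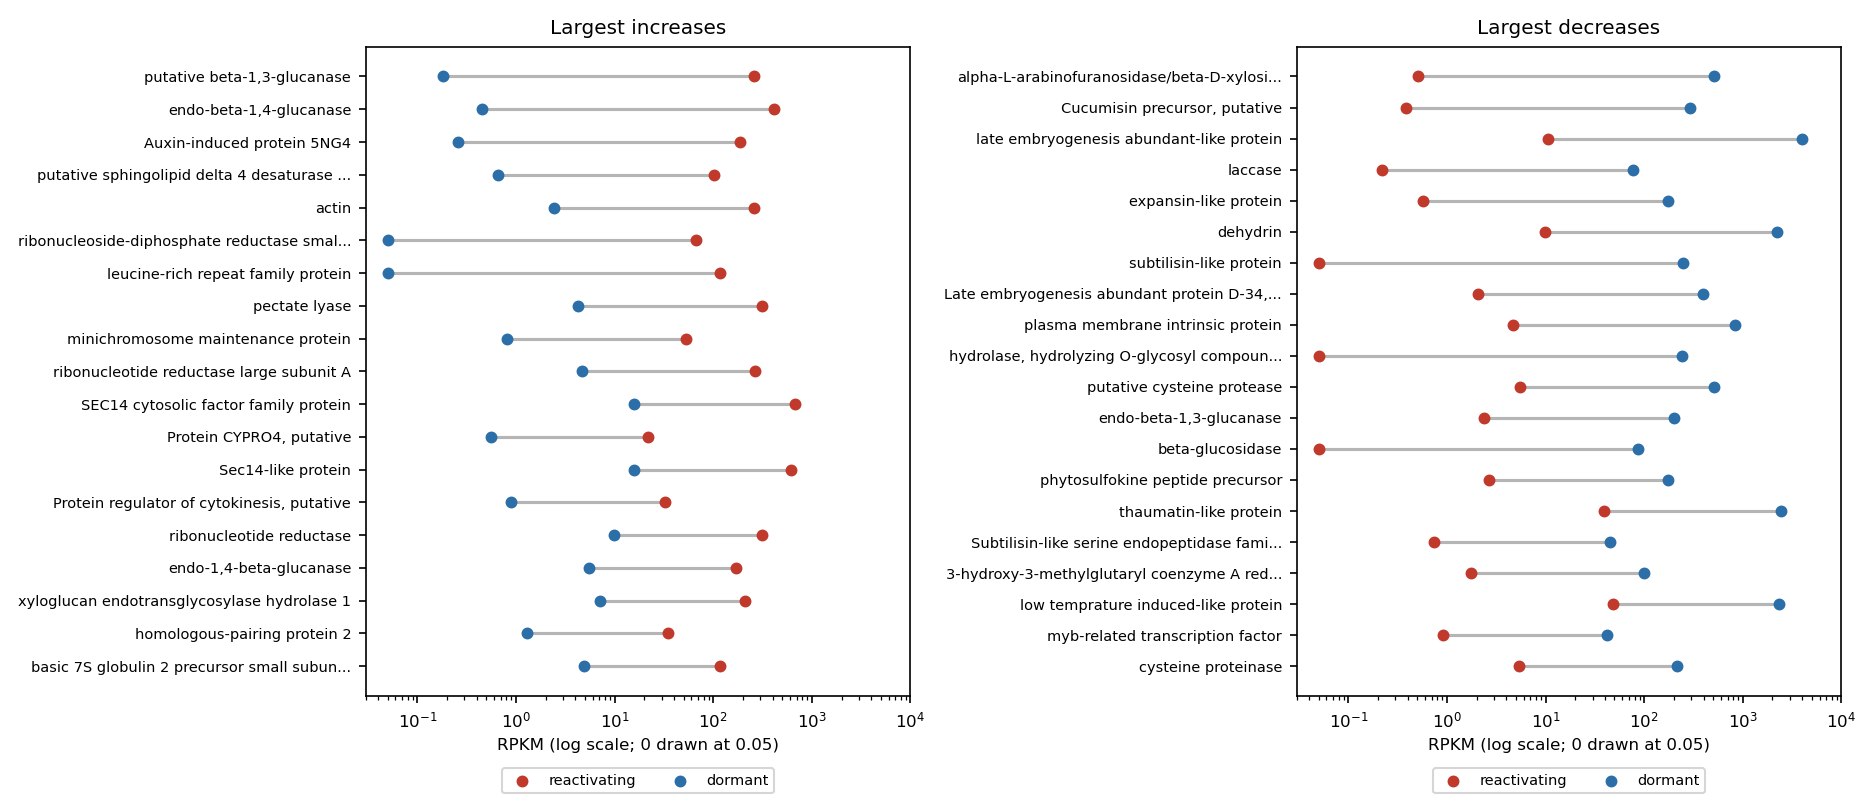
RPKM (x axis, log scale, 0 drawn at 0.05) in the reactivating library (red) and the dormant library (blue) for 19 of the 20 named unigenes with the largest increase (left) and the 20 with the largest decrease (right), 1 for each description and with 200 or more reads over both libraries. The left panel includes wall glucanases, enzymes of DNA replication and its precursors and both Sec14-type proteins, and the right one includes proteases, a dehydrin and LEA proteins.

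Single lipid enzymes had strong changes in both directions. A sphingolipid delta 4 desaturase (Unigene57542), which shapes the long-chain bases of membrane sphingolipids, had 628 reads (103 RPKM) in the reactivating library and 4 reads (0.658 RPKM) in the dormant library, 157-fold higher (61 to 578), and a D8-sphingolipid desaturase (Unigene50531) had 286 reads in the reactivating library and 37 in the dormant library, 7.73-fold higher (5.47 to 11.2), in a name group with 2 of 4 higher and 1 lower. Oleosins, the coat proteins of oil bodies, were higher in Unigene44877, with 3478 reads (1796 RPKM) in the reactivating library and 881 reads (455 RPKM) in the dormant library, 3.95-fold higher (3.66 to 4.25), and in Unigene35213, with 616 reads in the reactivating library and 113 in the dormant library, 5.45-fold higher (4.45 to 6.72), and lower in Unigene47240, with 53 reads in the reactivating library and 230 in the dormant library, 4.34-fold lower (3.21 to 5.97). Phospholipase D, which cuts head groups from membrane lipids, had 0 of 7 higher and 4 lower, with 30 reads in the reactivating library and 563 in the dormant library, 18.8-fold lower (13 to 28.1) for Unigene48712 and 19 reads in the reactivating library and 360 in the dormant library, 19-fold lower (12 to 31.8) for Unigene27182. Under phospholipase activity 6 of 38 unigenes were higher and 11 lower, the lowest median of the function terms, -0.57. Both Sec14-type proteins, which move phosphatidylinositol between membranes, were far higher, with 1635 reads in the reactivating library and 38 in the dormant library, 43-fold higher (31.2 to 61) for Unigene48983 and 615 reads in the reactivating library and 16 in the dormant library, 38.4-fold higher (23.5 to 67.7) for Unigene24655. The lipid list had 8 of 43 higher and 8 lower (18.6% each), near the 16.9% each way over all described unigenes.

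Vesicle traffic, the list that took in the Sec14-type proteins, had 7 of 43 higher (16.3%) and 0 lower. Over all described unigenes the shares were 16.9% each way. An ADP-ribosylation factor (Unigene18361), a small GTPase of coat assembly, had 902 reads in the reactivating library and 174 in the dormant library, 5.18-fold higher (4.40 to 6.13), and a rab family GTPase (Unigene50018) was 2.11-fold higher (1.79 to 2.50). Among sterol and terpene entry enzymes, hydroxymethylglutaryl-CoA reductase, the main control step of the mevalonate route, was itself split. By description 3 of its 5 unigenes were higher and 2 lower (median 1.02). The lower Unigene13583 had 5 reads in the reactivating library and 286 in the dormant library, 57.2-fold lower (24.2 to 178). Squalene synthase (Unigene14823), which starts sterol synthesis, had 318 reads in the reactivating library and 120 in the dormant library, 2.65-fold higher (2.14 to 3.30). Cytochrome P450 enzymes had 18 of 50 higher and 11 lower. Unigenes of the name cytochrome P450 704C1 went both ways, with 2695 reads in the reactivating library and 150 in the dormant library, 18-fold higher (15.2 to 21.3) for Unigene58376, 984 reads in the reactivating library and 71 in the dormant library, 13.9-fold higher (10.9 to 17.9) for Unigene40992 and 16 reads in the reactivating library and 119 in the dormant library, 7.44-fold lower (4.40 to 13.4) for Unigene7149. Cytochrome P450 78A4, of a family tied to organ size in Arabidopsis, was lower, with 8 reads in the reactivating library and 236 in the dormant library, 29.5-fold lower (14.7 to 69.1) for Unigene5913.

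Transport terms differed from each other. Under drug transport 2 of 39 unigenes were higher and 14 lower, under divalent metal ion transport 3 of 40 and 14, and under secondary active transmembrane transporter activity 9 of 69 and 25. Metal ion transport as a whole had 10 of 69 higher and 11 lower, transition metal ion transport 4 of 39 higher and 5 lower, and cation transport 7 of 40 higher and 3 lower. By name, mineral nutrient and ion transporters had 8 of 56 higher and 9 lower, and ABC and amino acid transporters had 19 of 142 higher and 28 lower, near the shares over all described unigenes. An autoinhibited calcium ATPase (Unigene53), which pumps calcium out of the cytosol, had 48 reads in the reactivating library and 256 in the dormant library, 5.33-fold lower (3.91 to 7.42). The unigene Unigene16089, named for iron transport into the vacuole, had 193 reads in the reactivating library and 0 in the dormant library, at least 64.3-fold higher. Phosphate transporter Unigene57796 counted 345 reads in the reactivating library and 38 in the dormant library, 9.08-fold higher (6.48 to 13), in a name group with 1 of 6 higher and 3 lower. A shaker-like potassium channel (Unigene2267) had 163 reads in the reactivating library and 21 in the dormant library, 7.76-fold higher (4.91 to 12.9). Among 4 measured aquaporins, a putative aquaporin (Unigene24515) had 598 reads in the reactivating library and 189 in the dormant library, 3.16-fold higher (2.68 to 3.75), and a plasma membrane intrinsic protein (Unigene49827) had 12 reads in the reactivating library, against 2167 in the dormant one.

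Hormone lists differed in how many members were beyond 2-fold. Auxin unigenes had 18 of 69 higher and 12 lower, gibberellin 5 of 14 and 0, cytokinin 5 of 19 and 2, abscisic acid 1 of 20 and 5, and ethylene 2 of 25 and 8. An auxin receptor of the AFB type (Unigene59183) had 831 reads in the reactivating library and 103 in the dormant library, 8.07-fold higher (6.57 to 10). Under another name, TIR1/AFB auxin receptor protein, 1 of 4 unigenes was higher and 0 lower (median -0.58). Those 4 summed to 1084 reads in the reactivating library and 1460 in the dormant library. The auxin influx carrier (Unigene38159) had 818 reads in the reactivating library, against 983 in the dormant one, 1.20-fold lower (1.09 to 1.32). Auxin-induced protein 5NG4, a pine protein of adventitious rooting, was higher in Unigene45986, with 114 reads in the reactivating library and 0 in the dormant library, at least 38-fold higher, and lower in Unigene9585, with 13 reads in the reactivating library and 341 in the dormant library, 26.2-fold lower (15.1 to 49.8).

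Ent-kaurene synthase, an early enzyme of gibberellin synthesis, had 2 of 5 higher and 0 lower. In Unigene519 there were 81 reads in the reactivating library and 13 in the dormant library, 6.23-fold higher (3.45 to 12.2), and a gibberellin 20-oxidase (Unigene12778) had 21 reads in the reactivating library and 0 in the dormant library, at least 7-fold higher, just past the minimum of 20 reads. DELLA protein (Unigene55020), a repressor of gibberellin response, had 225 reads in the reactivating library, against 168 in the dormant one, 1.34-fold higher (1.09 to 1.65). Cytokinin receptors by name had 4 of 5 higher and 0 lower, with 78 reads in the reactivating library and 8 in the dormant library, 9.75-fold higher (4.71 to 23.4) for AHK3-like Unigene37317, while the function term protein histidine kinase activity had 11 of 37 higher and 3 lower. ABI5-like protein 4 (Unigene14359), an abscisic acid response factor, had 95 reads in the reactivating library and 487 in the dormant library, 5.13-fold lower (4.11 to 6.46), and an ABA responsive element binding factor (Unigene5350) had 432 reads in the reactivating library and 1028 in the dormant library, 2.38-fold lower (2.13 to 2.67). ACC oxidase, the last step of ethylene synthesis, was lower in Unigene7819, with 45 reads in the reactivating library and 299 in the dormant library, 6.65-fold lower (4.85 to 9.31), and Unigene14066, with 55 reads in the reactivating library and 326 in the dormant library, 5.93-fold lower (4.44 to 8.04), and higher in Unigene12937, with 114 reads in the reactivating library and 6 in the dormant library, 19-fold higher (8.46 to 52.8). Ethylene response factor 4 (Unigene24734) had 3 reads in the reactivating library and 171 in the dormant library, 57-fold lower (19.2 to 279). Allene oxide synthase (Unigene54148), of jasmonate synthesis, was 2.36-fold lower (2.01 to 2.76).

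Among transcription factors, homeobox proteins had higher members and no lower one, and more NAC and MYB factors were lower than higher. Of 26 homeobox and HD-ZIP factors 6 were higher and 0 lower, and among 27 NAC or MYB proteins 7 stood higher and 12 lower. Class III HD-ZIP proteins set the pattern of xylem and meristems. C3HDZ1 (Unigene59489) had 2850 reads (220 RPKM) in the reactivating library and 257 reads (19.8 RPKM) in the dormant library, 11.1-fold higher (9.76 to 12.6), and another of the class (Unigene56176) had 193 reads in the reactivating library and 41 in the dormant library, 4.71-fold higher (3.35 to 6.76), while a class III factor (Unigene51725) had 57 reads in the reactivating library, against 97 in the dormant one, within 2-fold. KN1 (Unigene53872), a knotted-type meristem factor, had 65 reads in the reactivating library, against 128 in the dormant one, 1.97-fold lower (1.45 to 2.70). A NAC domain protein (Unigene54513) had 294 reads in the reactivating library and 42 in the dormant library, 7-fold higher (5.05 to 9.92), and another (Unigene15983) had 24 reads in the reactivating library and 297 in the dormant library, 12.4-fold lower (8.16 to 19.6). MYB8 (Unigene59406), a conifer MYB linked to lignin genes, had 240 reads in the reactivating library and 104 in the dormant library, 2.31-fold higher (1.83 to 2.93), and a MYB-like protein (Unigene6183) had 311 reads in the reactivating library and 1153 in the dormant library, 3.71-fold lower (3.27 to 4.22).

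Clock genes held the strongest changes of the light list, which had 3 of 29 higher and 6 lower. Pseudo-response regulator 7 (Unigene13619), a clock component and repressor of morning genes in Arabidopsis, had 17 reads in the reactivating library and 260 in the dormant library, 15.3-fold lower (9.37 to 26.7). Circadian response regulator 1b (Unigene18218) had 175 reads in the reactivating library and 448 in the dormant library, 2.56-fold lower (2.15 to 3.07). Phytochrome (Unigene4391) had 322 reads in the reactivating library and 136 in the dormant library, 2.37-fold higher (1.93 to 2.91) and phototropin 1 (Unigene51234) had 232 reads in the reactivating library and 101 in the dormant library, 2.30-fold higher (1.81 to 2.93), both light receptors. The hour of sampling is not given in the sources used here. SCARECROW-like protein 1 (Unigene59554) was 3.75-fold lower (3.31 to 4.27), and TM3-like MADS-box factor (Unigene43723) was 2.30-fold higher (1.91 to 2.78).

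Housekeeping machinery stayed mostly within 2-fold. Of 51 ribosomal proteins 48 were within 2-fold (median 0.34), of 9 proteasome subunits 9 (median -0.26), and of 38 RNA processing proteins 31 (median -0.30). Ribosome biogenesis had 10 of 11 within 2-fold, with fibrillarin (Unigene56135), which modifies ribosomal RNA, at 835 reads in the reactivating library, against 588 in the dormant one. Ubiquitin and F-box proteins had 3 of 80 higher and 12 lower. Translation factors had 4 of 36 higher and 6 lower, with elongation factor 1A (Unigene13523) at 2490 reads in the reactivating library and 608 in the dormant library, 4.09-fold higher (3.75 to 4.48). The function term structural molecule activity, which takes in ribosomal proteins and tubulins, had 21 of 181 higher and 3 lower.

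**Figure D5:**
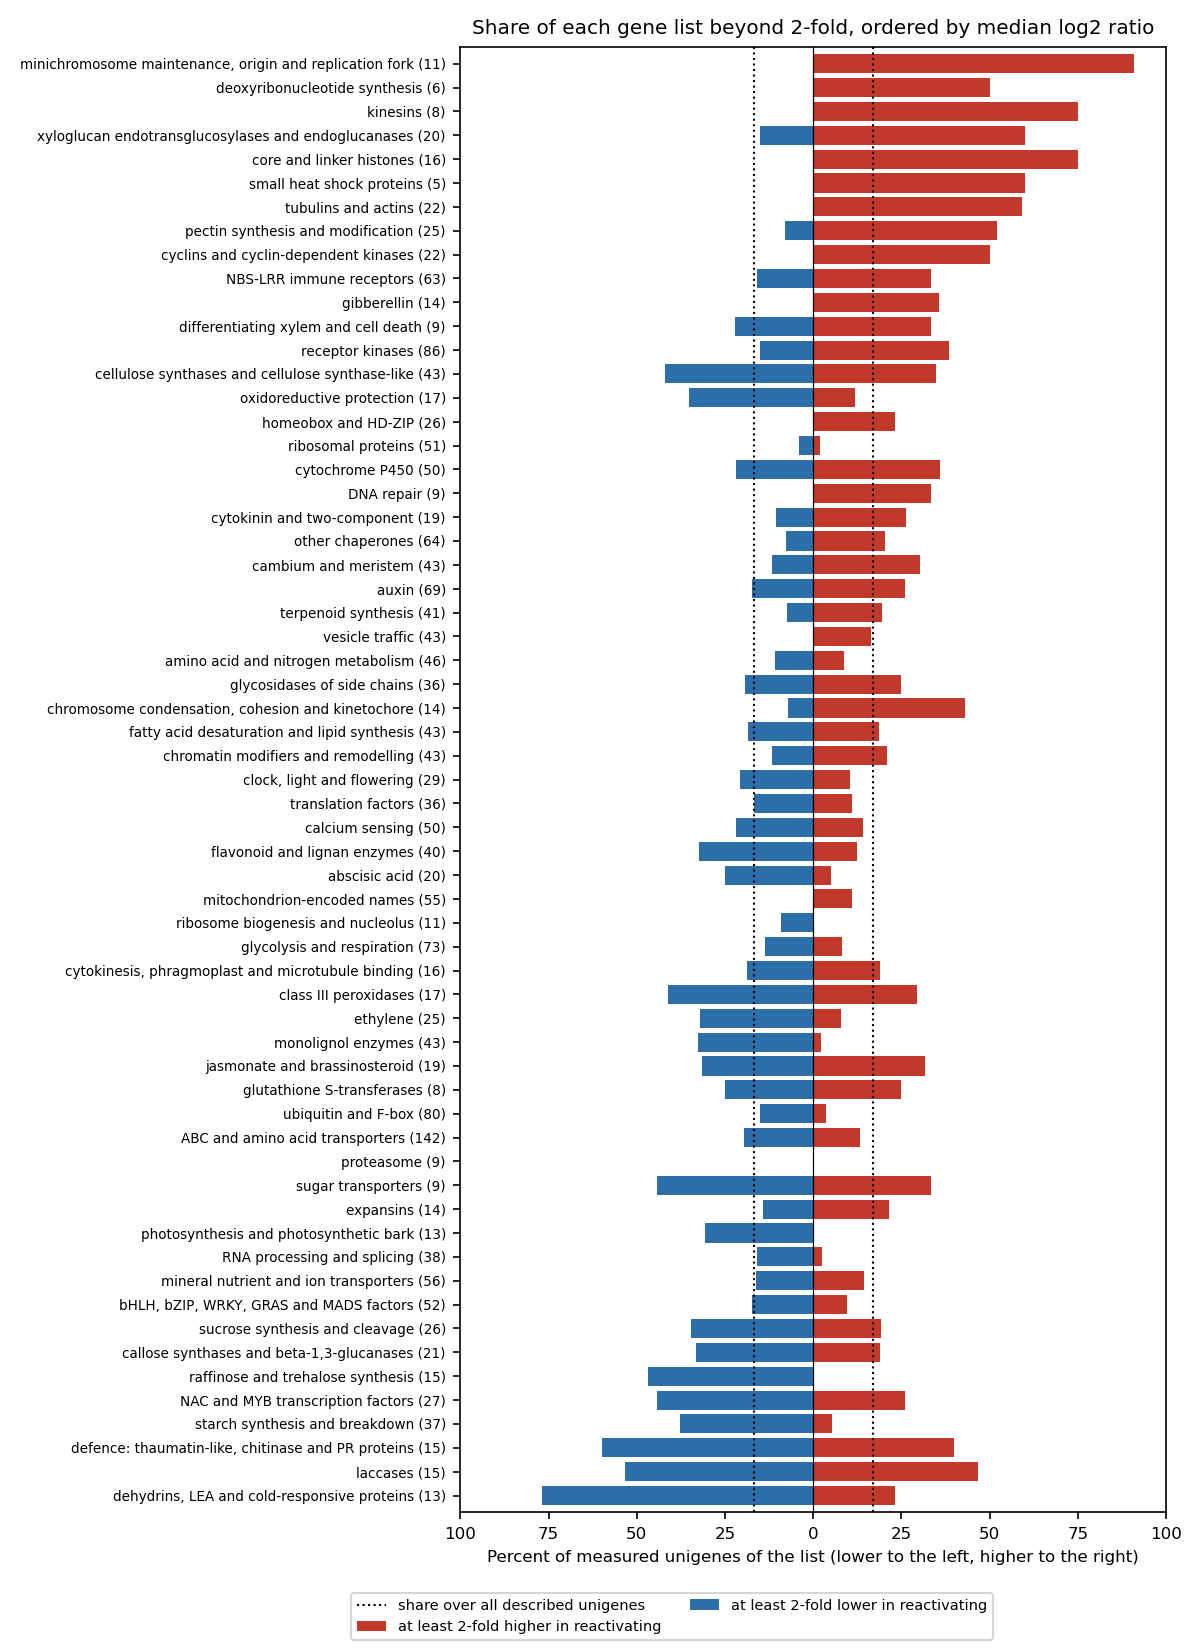
Share of the measured unigenes of each gene list (rows, number in parentheses, lists with at least 5) that were at least 2-fold higher (red, to the right) or lower (blue, to the left) in the reactivating library, ordered by median log2 ratio, with dotted lines at the share of all described unigenes, 16.9% each way. Replication, kinesins and histones extend furthest to the right, dehydrins and laccases sit at the bottom with bars on both sides, and proteasome subunits have no bar.

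Markers of the cambium and of its neighbours were read beside these results. The cambium and meristem list had 13 of 43 measured unigenes higher and 5 lower, with 12608 reads in the reactivating library and 6914 in the dormant library. Markers of differentiating xylem summed to 1504 reactivating and 2367 dormant reads, with 3 of 9 higher and 2 lower. Sucrose transporters, the measured phloem markers, had 252 and 507 reads in the reactivating and dormant libraries, with 2 of 3 lower. Photosynthesis unigenes had 414 reads reactivating and 435 dormant, with 4 of 13 lower. Terpene synthases of resin ducts had 1058 reads reactivating and 918 dormant, almost all from alpha pinene synthase (Unigene10582) with 1011 reads in the reactivating library, against 861 in the dormant one. Cork and suberin markers had 42 reads reactivating and 59 dormant in 3 unigenes. No measured member of these 5 neighbour lists was at 0 reads in either library. A limonene/borneol synthase outside the resin duct list, reported with terpenoid synthesis below, had no read in the dormant library. The part of these neighbouring cells in the differences above was not tested.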

How the data were processed

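RNA was sequenced from the cambium of the reactivating, dormant and active stages, with 1 library each, grouped by the labelled stage. Each deposited table gives, per the file headers, the authors' count of uniquely mapped reads for each unigene, its RPKM (reads scaled by length and library total), the percent of its length covered by reads, its length, its best protein hit and its gene ontology terms. The deposited RPKM equalled reads divided by length and by the library total in the header, within a relative difference of 1e-05. The sources used here name no assembler or mapper, and the labels' protocols describe no strand-specific step, so sense and antisense reads cannot be told apart.

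The tables were joined by unigene, and a missing unigene was taken as 0 reads. Unigenes with at least 20 reads in the reactivating and dormant libraries together were measured, and called higher or lower at a 2-fold ratio of RPKM. Exact Clopper-Pearson intervals (95%, scipy 1.17.1) cover counting error only. They take reads as independent, which PCR copies of 1 molecule are not. For a fold, 0 reads were replaced by 3, 0.513 RPKM on 1 kilobase at 5.85 M reads, and the fold is a lower bound. With 1 library per stage no test between stages was made.

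The 66 gene lists are word patterns in the hit descriptions. The members, lists and rules were chosen with earlier results of these data known, and some patterns were corrected after their members and values had been seen. Named unigenes are the 30 largest changes each way with at least 200 reads and 1 per description, and per list the 2 with the most reads and the 2 largest changes each way with at least 100 reads. Terms named are the 15 highest and 15 lowest medians per namespace and the 10 largest, leaving out those the tables give without a name. Other unigenes and terms named, and tallies by protein name outside the lists, were chosen after their values were seen, and 1 protein name that the rule selects is not reported here. Gene names are those of best hits in other species, several unigenes may be fragments of 1 transcript, and reads of close copies may be split or lost by unique counting.

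Alternatives were edgeR 4.0.16 TMM and DESeq2 1.42.0 size factors as scaling only, totals without the 10 unigenes with the most reads, other minimums, thresholds and lengths, 1 read added, and reads summed by description. Scripts ran in Python 3.11.15 and R 4.3.3.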

Additional observations from a re-analysis of the deposited data

Results flagged for a closer look

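The active library, which enters no comparison here, held reads on unigenes that neither compared library detected. In it 136 unigenes with 0 reads in both the reactivating and the dormant library had more than 3 reads, the limit that a count of 0 allows. The highest had 74 active reads (Unigene9637, a hypothetical protein by its hit), and a pectinesterase-1 precursor (Unigene52430), a wall enzyme, had 52.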

How the results depend on the processing

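Scaling by edgeR TMM factors shifted all log2 ratios by -0.07, by DESeq2 size factors by -0.02 and by totals without the 10 unigenes with the most reads by -0.04. Under these the counts of higher and lower unigenes stayed within 1.5 times of 6136 and 5014, and no list or term with a median beyond 0.5 and none of the 30 largest named changes each way turned its direction. With 1 read added 18 of these 60 unigenes moved by 0.25 or more on the log2 scale and kept their direction. With a minimum of 100 reads 3129 unigenes were higher and 2465 lower, with unigenes of 500 bases or more 2328 and 1865, with reads summed by description 3299 and 2569, at a 4-fold ratio 2456 and 1728, and with the counting interval wholly beyond 2-fold 3202 and 2254. The first 3 of these test fewer units, and the last 2 are stricter. With no minimum 8849 were higher and 8324 lower, from more unigenes of few reads. Of medians beyond 0.5, those of 23 lists and terms moved by more than 1.5-fold in size under some setting of minimum, length or description, and the laccase median was -3.29, but -0.00 with no minimum. The medians that turned were those of peptide transport (-0.31 with 10 reads in each library, -0.38 with 500 bases or more), glucan metabolic process (-0.03 and -0.41 under the same settings), the differentiating xylem markers (-0.33 with 100 reads, -0.23 summed by description) and hexose metabolic process (0.01 summed by description). The cause was not tested. No paired analysis was possible because each stage has 1 library. Depth limits unigenes below the minimum of reads, 17316 of 53590, for which no difference is given.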

Other observations

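Many of the largest changes had no protein name. Of the 100 largest increases among unigenes with at least 200 reads, 10 had a description that names a protein and 27 had no hit, and the smallest fold was 61.7. Of the 100 largest decreases 19 had such a description and 34 had no hit, and the smallest fold was 56.8. The predicted protein Unigene56045 had 4957 reads (1058 RPKM) in the reactivating library and 3 reads (0.640 RPKM) in the dormant library, 1652-fold higher (565 to 8014). A unigene with a conifer hit of unknown function (Unigene13069) had 2864 reads (1621 RPKM) in the reactivating library and 0 reads (0 RPKM) in the dormant library, at least 954-fold higher. Downward, a hypothetical protein (Unigene59043) had 0 reads (0 RPKM) in the reactivating library and 1410 reads (148 RPKM) in the dormant library, at least 470-fold lower, and a unigene of unknown function (Unigene59386) had 9 reads in the reactivating library and 3507 in the dormant library, 390-fold lower (205 to 853). Unigenes without a hit were higher in 19.9% and lower in 14.5% of 12590 cases, and those with one in 15.3% and 13.5% of 23684.

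Mitochondrial names and the broad plastid term had few members beyond 2-fold. Of 55 unigenes with names of mitochondrial genes 6 were higher (10.9%) and 0 lower, with a median of -0.13. Described unigenes as a whole were higher in 16.9% and lower in 16.9% of cases. NADH dehydrogenase subunit 5 (Unigene53487) of the respiratory chain had 384 reads in the reactivating library and 157 in the dormant library, 2.45-fold higher (2.03 to 2.96). The component term plastid had 109 of 1090 higher and 119 lower. Under the component term plastid outer membrane 2 of 46 unigenes were higher and 13 lower, among them digalactosyldiacylglycerol synthase (Unigene24918), which makes a plastid membrane lipid, with 15 reads in the reactivating library and 50 in the dormant library, 3.33-fold lower (1.84 to 6.39). Over all unigenes with a component term 12.4% were lower. Chloroplast stroma had 2 of 32 higher and 12 lower. Terpenoid synthesis had 8 of 41 higher and 3 lower, with a limonene/borneol synthase (Unigene47772) at 111 reads in the reactivating library and 0 in the dormant library, at least 37-fold higher.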
